A study of Mus musculus with 10 samples.

Results

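The 10 genes described here are Acta2, Tagln, Myl9, Cnn1, Tpm2, Actg2, Des, Vim, Pdgfra and Pdgfrb, which are used as markers of contractile myofibroblasts, pericytes and other mesenchymal cells. They were taken by gene symbol, and all 10 were found among the 54532 genes of the deposited table. Myofibroblasts are contractile cells that lay down matrix in the interstitium of a fibrotic kidney, and pericytes are the cells that wrap its capillaries. Pericytes and resident fibroblasts carry receptors for platelet-derived growth factor (PDGF), and on activation they assemble stress fibers from smooth muscle actin and its partner proteins. The smooth muscle of vessels and of the renal pelvis uses the same contractile proteins, so that none of these genes marks a single cell type in RNA from a whole kidney.

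The kidneys came from male C57BL/6 mice without a genetic change whose left ureter was ligated at the age of 8 weeks (unilateral ureteral obstruction, UUO), and tissue was taken 14 days later. One group received dimethyl malonate (DMM), a malonate ester that inhibits succinate dehydrogenase, at 40 mg/kg into the peritoneum every other day, and the control group received PBS. Each group had 5 mice with 1 bulk RNA-seq library per mouse, and the comparison asks how transcript levels in the obstructed kidney differ with DMM. Kidneys without obstruction were not analysed here, so the values do not show how far obstruction itself moved these genes. Total counts were between 16457495 and 18078777 per library in PBS kidneys and between 15722527 and 19475833 in DMM kidneys.

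Of the 10 libraries, 3 stood apart from the rest of their group. PBS replicate 3 was below the other 4 PBS kidneys in 9 of the 10 genes, and DMM replicate 1 was above the other 4 DMM kidneys in 7 of the 10. The same libraries stood apart in the 9 proximal tubule markers, whose normalized counts summed to 5245 CPM (the count relative to the library size, scaled by TMM) in PBS replicate 3 and 988 to 2237 CPM in the other PBS kidneys. In DMM replicate 1 the sum was 1590 CPM, against 4321 to 6409 CPM in the other DMM kidneys. The tests of the 10 genes are therefore given over all 10 libraries and over the 8 that remain without PBS replicate 3 and DMM replicate 1. The 8 libraries are part of the 10, so that one set is no independent check of the other. Whether the labels of the 2 libraries are right could not be settled here, and an exchange would change every comparison over all 10. Not every measure set PBS replicate 3 apart, since in the summed leukocyte markers given below PBS replicate 3 was above DMM replicates 2 to 5, as the other PBS kidneys were. The 2 libraries were left out with earlier results of these data known, and leaving them out moved the log2 fold change of each of the 10 genes further down. The p-values over the 8 libraries take no account of this choice.

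DMM replicate 4 differed in another way, by gene length. Relative to the mean of all libraries, its median protein-coding gene under 1500 bp stood at -0.79 on the log2 scale, that of 1500 to 5000 bp at -0.28 and that of at least 5000 bp at 0.35. In each of the other 9 libraries these medians lay between -0.07 and 0.16. The 10 genes range in length from 1162 bp for Myl9 to 10024 bp for Pdgfra. DMM replicate 4 was the lowest of the 10 libraries in Myl9, Tagln and Cnn1 and the highest in Pdgfra, Vim and Pdgfrb. In Acta2, Tpm2, Actg2 and Des it was within the range of the other DMM kidneys. For Acta2 and Des this rests on DMM replicate 1, since among DMM replicates 2 to 5 it was the highest in both (267 and 44.6 CPM). The part of gene length in the values of this library was not tested for single genes.

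Of the 10 genes, Cnn1 and Actg2 were called lower in DMM kidneys over the 8 libraries, at a fold change above 1.5 and an adjusted p under 0.05. That is 2 of 10, beside 590 of 16550 tested genes (3.56%), and none of the 10 was called higher, beside 452 genes (2.73%). Over all 10 libraries edgeR called 0 of the 10 genes and 0 of 16505 genes (0%), while 1798 genes (10.9%) but 0 of the 10 had an unadjusted p under 0.05. DESeq2 called 50 genes over the 10 libraries, and 0 of them were among the 10. In RNA from whole kidney tissue, fewer cells of a type and less RNA per cell cannot be told apart.

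Cnn1 encodes calponin, an actin-binding protein of differentiated smooth muscle (ENSMUSG00000001349, chromosome 9, 22099216 to 22109630, plus strand, mm10). Its normalized count was 14.7, 18.01, 6.35, 25.9 and 22.2 CPM in PBS replicates 1 to 5, and 31.5, 5.86, 8.16, 3.14 and 7.66 CPM in DMM replicates 1 to 5. DMM replicates 2 to 5 all lay below PBS replicates 1, 2, 4 and 5, PBS replicate 3 lay among those DMM kidneys, and DMM replicate 1 was the highest of all. The means over the 8 libraries were 20.1 ± 4.85 CPM (SD, n = 4) in PBS and 6.18 ± 2.26 CPM (SD, n = 4) in DMM kidneys. Cnn1 thus had a log2 fold change of DMM over PBS of -1.70 (SE 0.31, adjusted p = 0.0137, edgeR's quasi-likelihood test, adjusted by the Benjamini-Hochberg method). With all 10 libraries it was at 17.4 ± 7.49 CPM and 11.3 ± 11.5 CPM (SD, n = 5 each), and the log2 fold change of -0.63 did not pass the test (SE 0.57, adjusted p = 0.661, edgeR).

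Actg2 encodes the gamma smooth muscle actin, best known from the smooth muscle of hollow organs (ENSMUSG00000059430, chromosome 6, 83512905 to 83536265, minus strand, mm10). It stood at 23.99, 35.1, 12.1, 53.7 and 42.7 CPM in PBS replicates 1 to 5, and at 58.6, 5.17, 11.6, 6.52 and 17.9 CPM in DMM replicates 1 to 5. The pattern was that of Cnn1, with DMM replicate 1 the highest of the 10 libraries and PBS replicate 3 inside the range of the other DMM kidneys. Actg2 over the 8 libraries was at 38.8 ± 12.5 CPM in PBS and 10.3 ± 5.75 CPM in DMM kidneys (SD, n = 4 each), a log2 fold change of -1.92 (SE 0.40, adjusted p = 0.0252, edgeR). With all 10 libraries it was at 33.5 ± 16.1 CPM and 19.96 ± 22.2 CPM (SD, n = 5 each), with a log2 fold change of -0.75 (SE 0.63, adjusted p = 0.637, edgeR).

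Both calls over the 8 libraries depended on single mice. Without PBS replicate 5 neither gene was called, with an adjusted p of 0.0534 for Cnn1 and 0.0815 for Actg2. The call of Actg2 was also lost without PBS replicate 2 (adjusted p = 0.0623), PBS replicate 4 (0.0819) or DMM replicate 3 (0.0692, all edgeR). The log2 fold changes changed little in these fits, at -1.66 for Cnn1 and between -1.98 and -1.72 for Actg2.

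**Figure D1:**
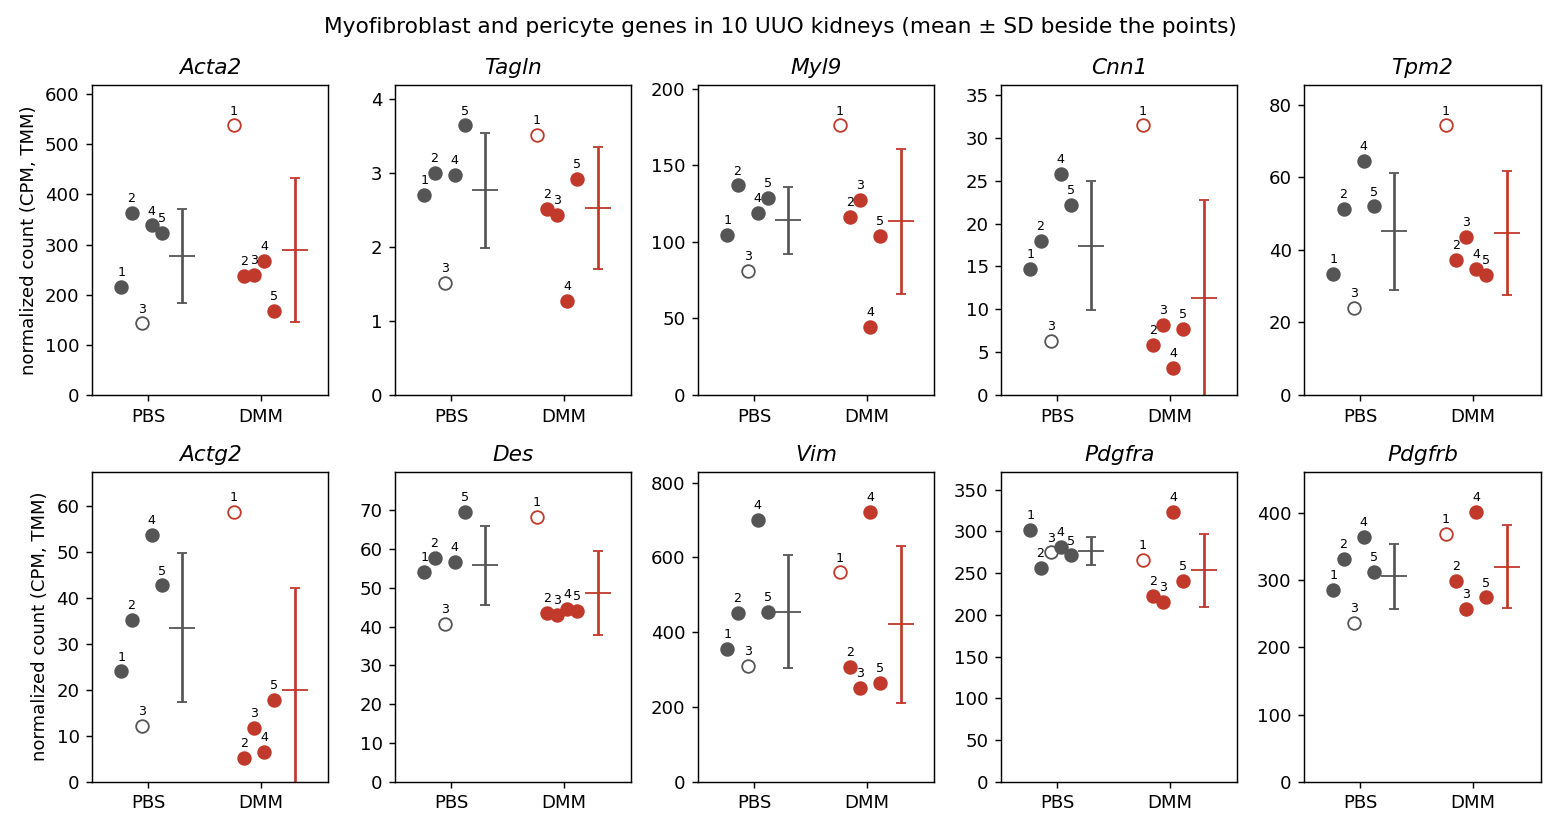
Normalized count (CPM with TMM, linear axes from 0) of each of the 10 genes in 10 kidneys, with PBS in grey and DMM in red. Numbers are replicates, open circles are PBS replicate 3 and DMM replicate 1, and bars are the mean ± SD of all 5 mice, with lower ends under 0 not drawn. In Cnn1, DMM replicates 2 to 5 lie between 3.14 and 8.16 CPM and DMM replicate 1 at 31.5 CPM.

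Acta2, the alpha smooth muscle actin that is the most used myofibroblast marker, did not pass the test. Its normalized count was 215, 363, 143, 338 and 324 CPM in PBS replicates 1 to 5, and 538, 237, 239, 267 and 167 CPM in DMM replicates 1 to 5. The groups overlapped with and without the libraries named above, since PBS replicate 1 was within the range of DMM replicates 2 to 5. Its means over the 8 libraries were 309 ± 65.1 CPM in PBS and 227 ± 42.4 CPM in DMM kidneys (SD, n = 4 each), with a log2 fold change of -0.45 (SE 0.20, adjusted p = 0.234, edgeR). When all 10 were used, the means were 277 ± 93.9 CPM and 289.6 ± 144 CPM (SD, n = 5 each). The log2 fold change then had the other sign, 0.07 (SE 0.33, adjusted p = 0.945, edgeR), and scaling by library size alone brought it to -0.01.

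Tpm2, a tropomyosin that lies along the actin filament, followed Acta2 from kidney to kidney. It was at 33.5, 51.3, 24.1, 64.6 and 52.0 CPM in PBS replicates 1 to 5, and at 74.4, 37.2, 43.7, 34.8 and 33.1 CPM in DMM replicates 1 to 5. PBS replicate 1 again lay among the DMM kidneys, and DMM replicate 1 above every other kidney. Tpm2 had a log2 fold change of -0.44 (SE 0.19, adjusted p = 0.233, edgeR) over the 8 libraries and -0.02 (SE 0.29) over all 10.

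Myl9, a regulatory light chain of smooth muscle and non-muscle myosin, was at 105, 137, 81.2, 119 and 129 CPM in PBS replicates 1 to 5, and at 176, 116, 127, 44.4 and 104 CPM in DMM replicates 1 to 5. DMM replicates 2, 3 and 5 were close to or within the range of PBS replicates 1, 2, 4 and 5, and DMM replicate 4 was far below. Myl9 had a log2 fold change over the 8 libraries of -0.32 (SE 0.28, adjusted p = 0.557, edgeR), and without DMM replicate 4 it was -0.08 (SE 0.10). With all 10 it was -0.01 (SE 0.29).

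Tagln encodes transgelin (SM22), an actin-binding protein that is abundant in smooth muscle, yet the table held only 21 to 62 counts of it per library, against 2535 to 8713 of Acta2. It was at 2.70, 3.002, 1.52, 2.98 and 3.65 CPM in PBS replicates 1 to 5, and at 3.52, 2.52, 2.44, 1.27 and 2.92 CPM in DMM replicates 1 to 5. The groups overlapped in both sets of libraries. For Tagln the log2 fold change was -0.43 (SE 0.28, adjusted p = 0.428, edgeR) over the 8 libraries, -0.23 (SE 0.20) without DMM replicate 4, and -0.13 (SE 0.30) over all 10.

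The annotation at Tagln limits how its count can be read, and whether the overlap given here lowered it was not tested. In GENCODE M21, which is on the same build as the table, 1349 of its 1988 exon bases (67.9%) also lie in exons of genes on the opposite strand, 1241 in the antisense gene Gm48529 and 108 in the last exon of Pcsk7, a proprotein convertase. Gm48529 had 10 to 46 counts per library and Pcsk7 574 to 950. Whether the authors' counting used the strand is not given in the sources used here, so that reads on the shared bases cannot be assigned, and the level of Tagln is uncertain. The other contractile genes share no exon base with another gene in that annotation. Of 2146 distinct stretches of 50 bases in transcripts of Acta2, 7 occur in transcripts of other genes, and of 1592 in Actg2 none does, so that few reads could be split between the actin genes. Des shares 220 of 3754 bases with Gm15179, and Pdgfra 652 of 10024 with Gm42802, Gm42803 and Mir7025, none of which had more than 5 counts in any library.

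**Figure D2:**
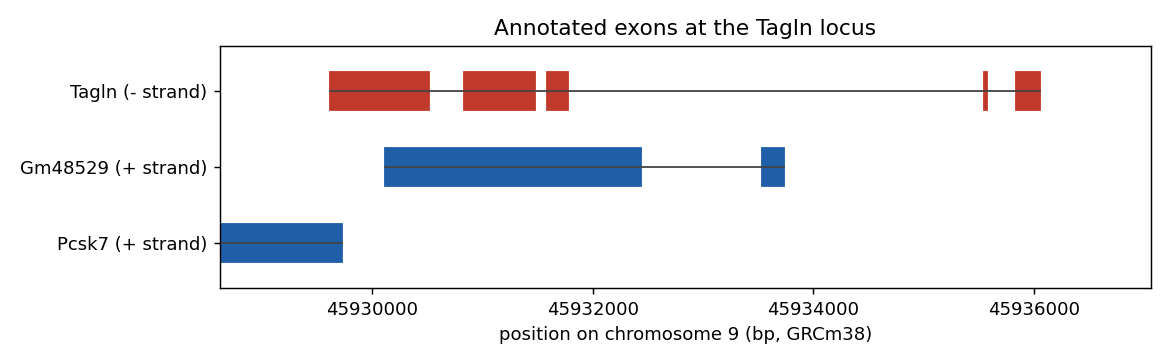
Exons of Tagln (red) and of the genes whose exons overlap it (blue) by position on chromosome 9 (bp, GRCm38), from GENCODE M21, with Pcsk7 drawn only in its last part. Gm48529 and Pcsk7, on the plus strand, cover 1349 of the 1988 exon bases of Tagln, on the minus strand.

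Of Des and Vim, the intermediate filament genes among the 10, Des had the tighter values. Desmin links the contractile units of muscle cells and is found in pericytes and mesangial cells. Des (chromosome 1, 75360329 to 75368579, plus strand, mm10) was at 54.2, 57.8, 40.7, 56.6 and 69.5 CPM in PBS replicates 1 to 5, and at 68.2, 43.6, 43.0, 44.6 and 43.9 CPM in DMM replicates 1 to 5. DMM replicates 2 to 5 lay close together and below all PBS kidneys but PBS replicate 3, which was the lowest of the 10, and DMM replicate 1 was above all PBS kidneys but PBS replicate 5. The means of Des over the 8 libraries were 59.3 ± 6.82 CPM and 43.6 ± 0.675 CPM (SD, n = 4 each), a log2 fold change of -0.44 (SE 0.11, adjusted p = 0.0439, edgeR). Its fold of 1.36 was under the threshold of 1.5, so that Des was not called. At an adjusted p under 0.05 without a fold threshold, 3 of the 10 genes were lower, beside 662 of 16550 genes (4%). With 1 of the 8 libraries left out, Des had an adjusted p under 0.05 only without DMM replicate 4, and otherwise between 0.0746 and 0.132, and without a filter on low counts it had 0.0860 (edgeR). Des over all 10 libraries had a log2 fold change of -0.20 (SE 0.17, adjusted p = 0.647, edgeR).

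Vimentin, the intermediate filament of mesenchymal cells in general, is also made by leukocytes, endothelium and injured tubule cells. Vim (chromosome 2, 13573927 to 13582826, plus strand, mm10) was at 356, 451, 311, 700.2 and 455 CPM in PBS replicates 1 to 5, and at 559.9, 307, 251, 721 and 264 CPM in DMM replicates 1 to 5. The highest values were those of PBS replicate 4 and DMM replicate 4, while DMM replicates 2, 3 and 5 were below all PBS kidneys. Vim over the 8 libraries had a log2 fold change of -0.35 (SE 0.36, adjusted p = 0.627, edgeR), and over all 10 it was -0.11 (SE 0.33). This result depended on single libraries. Without PBS replicate 4 the log2 fold change was -0.13. Without DMM replicate 4 the log2 fold change over the remaining 7 libraries was -0.84 (SE 0.20, adjusted p = 0.0142, edgeR) and Vim was called lower with Cnn1 and Actg2. In that fit 3 of the 10 genes were lower, beside 1281 of 16828 genes (7.61%).

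The PDGF receptors mark the stromal cells from which myofibroblasts arise, with Pdgfra on fibroblasts and Pdgfrb on pericytes, mesangial cells and fibroblasts. Pdgfra (chromosome 5, 75152292 to 75198215, plus strand, mm10) was at 302, 256, 275, 281 and 271 CPM in PBS replicates 1 to 5, and at 266, 222, 215, 323 and 240.5 CPM in DMM replicates 1 to 5. Its PBS kidneys were close to each other, PBS replicate 3 among them, and DMM replicates 2, 3 and 5 lay below all of them. Pdgfra had a log2 fold change of -0.15 (SE 0.15, adjusted p = 0.608, edgeR) over the 8 libraries and -0.13 (SE 0.13, adjusted p = 0.687, edgeR) over all 10. Without DMM replicate 4 it was -0.30 over 7 libraries (SE 0.07, adjusted p = 0.0165, edgeR), with a fold under the threshold.

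Pdgfrb was at 286, 332, 236, 364 and 313 CPM in PBS replicates 1 to 5, and at 369.6, 299, 258, 402 and 275 CPM in DMM replicates 1 to 5. The groups overlapped widely in both sets of libraries. The log2 fold change was -0.07 (SE 0.16, adjusted p = 0.837, edgeR) over the 8 libraries, -0.22 (SE 0.09) without DMM replicate 4, and 0.07 (SE 0.16, adjusted p = 0.877, edgeR) over all 10.

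Taken by direction, all 10 genes had a fitted log2 fold change under 0 over the 8 libraries, with a median of -0.43, beside a median of 0.02 over all tested genes, of which 47.6% were under 0. All 10 were under 0 there with RLE size factors or library size alone as well. PBS replicate 3 was below its group in 9 of these genes and DMM replicate 1 above its group in 7. Leaving them out moved all 10 down, so that the direction over the 8 libraries is in part set by that choice. The values of all tested genes were not chosen in that way, and no conclusion is drawn from the difference. With all 10 libraries 8 of the 10 were under 0 by TMM, beside 47.2% of all tested genes, and 8 by RLE size factors. By library size alone 10 of the 10 were under 0, but that scaling also moved the median over all tested genes to -0.06. The median by TMM was -0.12 for the 10 genes, beside 0.02 over all tested genes. In 3 of the 10 genes, Cnn1, Actg2 and Des, every DMM kidney of the 8 libraries was below every PBS kidney, which was so in 1763 of 16550 genes (10.7%). In these genes only PBS replicate 3 and DMM replicate 1 lay across the groups, so that the separation follows from leaving them out. With all 10 libraries no gene of the 10 had groups that did not overlap in either direction, beside 322 of 16505 genes (1.95%).

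**Figure D3:**
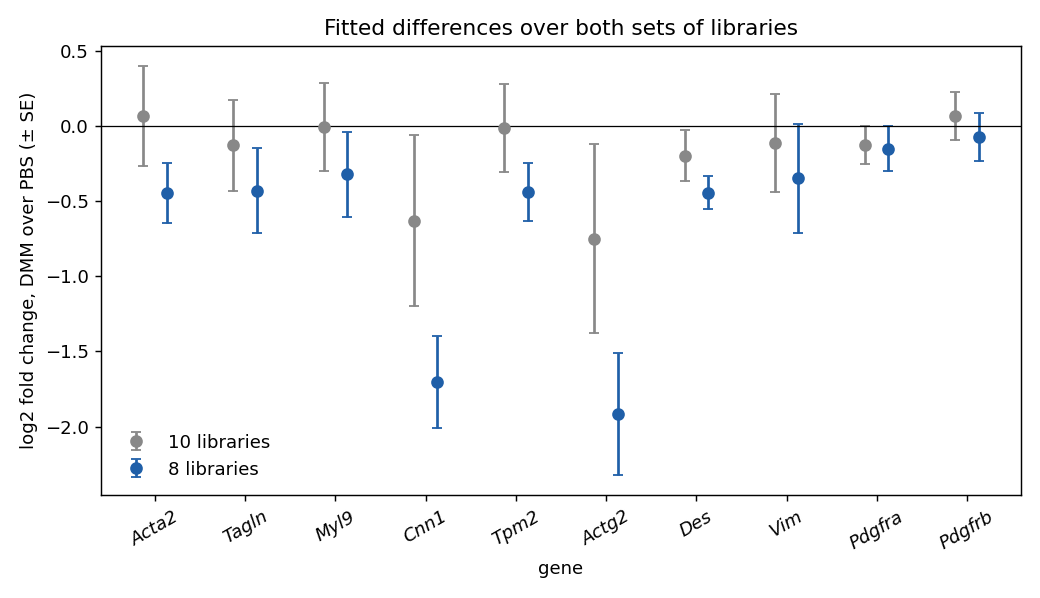
Fitted log2 fold change of DMM over PBS with its standard error (bars) for each of the 10 genes, over all 10 libraries in grey and over the 8 libraries in blue. Over the 8 libraries the values run from -1.92 in Actg2 to -0.07 in Pdgfrb, and over all 10 from -0.75 in Actg2 to 0.07 in Acta2.

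Levels were compared between genes as RPKM, which divides the normalized count by gene length in kilobases. Over the 10 kidneys Acta2 was the most abundant, at 159 ± 64.3 RPKM (SD, n = 10), above 98.9% of tested genes. Myl9 at 97.9 ± 29.95 RPKM and Vim at 92.3 ± 36.5 RPKM followed, and their means did not differ beyond their spread. Myl9 was above Vim in 8 of 10 kidneys, all but PBS replicate 4 and DMM replicate 4. Pdgfrb at 57.2 ± 9.69 RPKM was above Pdgfra at 26.4 ± 3.34 RPKM in 10 of 10 kidneys. Actg2 at 17.2 ± 12.6, Tpm2 at 15.4 ± 5.39 and Des at 13.9 ± 2.85 RPKM had no fixed order among kidneys. Cnn1 at 5.24 ± 3.54 RPKM was below Des and above Tagln in 10 of 10 kidneys. Tagln, at 1.33 ± 0.386 RPKM, had a level above 20.8% of tested genes, with the limit on its count given above.

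A ratio between genes of the same library does not depend on library scaling. Per length, Actg2 amounted to 12.7%, 11.1%, 9.75%, 18.1% and 15.1% of Acta2 in PBS replicates 1 to 5, and to 12.5%, 2.49%, 5.56%, 2.79% and 12.3% in DMM replicates 1 to 5. DMM replicates 2 to 4 were below every PBS kidney, whereas DMM replicates 1 and 5 were within their range. Cnn1 amounted to 4.45%, 3.23%, 2.90%, 4.98% and 4.47% of Acta2 in the PBS kidneys and to 3.81%, 1.61%, 2.22%, 0.765% and 2.99% in the DMM kidneys, in the same order. Over the 8 libraries the DMM kidneys were all lower than the PBS kidneys in this ratio, and over all 10 they were not. Tagln over Acta2 had means of 0.923% in PBS and 0.889% in DMM kidneys over all 10 libraries. Pdgfra over Pdgfrb had means of 50.6% and 43.5%. In both of these the groups overlapped in both sets of libraries. The ratios were chosen after the values had been seen and were not tested.

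The genes were also compared by how they varied from kidney to kidney, by Pearson's r of log2(CPM + 0.5) over 10 libraries. These values are a description, since the libraries share depth, tissue composition and the length pattern of DMM replicate 4. The closest pairs were Cnn1 with Actg2 (r = 0.953), Acta2 with Tpm2 (r = 0.934), Vim with Pdgfrb (r = 0.911) and Tagln with Myl9 (r = 0.889). As deviations from the group means, the same pairs had r = 0.941, 0.934, 0.958 and 0.888. Over the 8 libraries they had r = 0.942, 0.834, 0.961 and 0.904. The 15 pairs of contractile genes lay between 0.4997 and 0.953 over the 10 libraries, but between 0.168 (Acta2 with Tagln) and 0.942 over the 8. Des went with Cnn1 (r = 0.883) and Actg2 (r = 0.857) more closely than with Vim (r = 0.529). Pdgfra stood apart from the contractile genes, with r from -0.54 with Myl9 to 0.206 with Actg2.

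**Figure D4:**
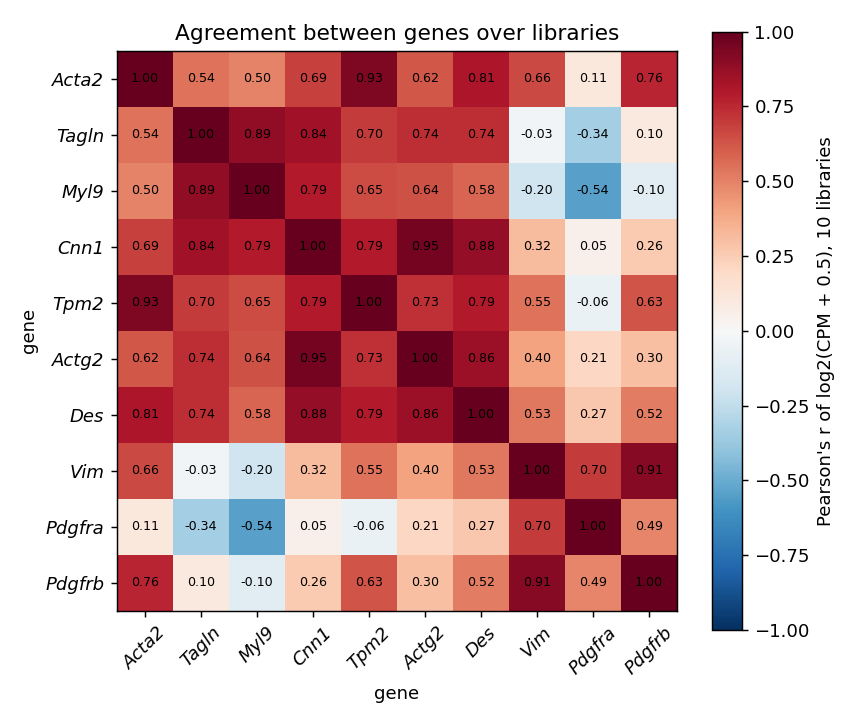
Pearson's r of log2(CPM + 0.5) over 10 libraries for each pair of the 10 genes, from blue (-1) to red (1). Cnn1 and Actg2 have r = 0.953, and Myl9 and Pdgfra r = -0.54.

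Among 15447 genes with a mean of at least 1 CPM, the 5 whose log2 values were most like those of Acta2 over the 10 libraries were Tcaf1 (r = 0.940), Tpm2 (0.934), Msrb3 (0.921), Dlgap4 (0.916) and Cd248 (0.915), the last a surface protein of stromal cells and pericytes. The 5 most like Pdgfrb were Cald1 (r = 0.985), which encodes the actin-binding protein caldesmon, Tpm4 (0.981), Ehd2 (0.974), Ptbp1 (0.957) and Ppp1r13b (0.956). By the same measure Vim ranked 48 for Pdgfrb, while Pdgfra ranked 6357 for Acta2.

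Smooth muscle genes are controlled by serum response factor (SRF) and its coactivators, which bind a short element called the CArG box, a pair of C, a core of 6 bases of A or T, and a pair of G. RefSeq promoters (GRCm38.p6, 250 bases before to 50 after the start of the promoter entry) were at hand for 7 of the 10 genes. That start is not the gene start of the deposited table. The window of Vim (13574061 to 13574360) lies inside the gene, which begins at 13573927. Most of the window of Tpm2 (43523505 to 43523804) also lies inside its gene, which starts at 43523765 on the minus strand. The sequence before the deposited start was thus not searched for Vim and hardly for Tpm2. They had no entry for Tagln, Actg2 and Pdgfrb. A CArG box, which reads as a CArG box on both strands, was in the promoter of Myl9 and in 535 of 32851 promoters (1.63%). With at most 1 G or C allowed in the core, it was found in Acta2 and Myl9 and in 3280 promoters (9.98%), and none was in the windows of Cnn1, Tpm2, Des, Vim and Pdgfra. The stretches with the boxes are shown since Acta2 and Myl9 encode partners in the same contractile fiber, with the boxes in capitals. In Acta2 (chr19:34255378-34255477, minus strand) they begin 84 and 34 bases before the start of the promoter entry. In Myl9 (chr2:156775283-156775394, plus strand) they begin 161 and 99 bases before it. These distances do not hold for the deposited gene starts, 34255336 for Acta2 and 156775420 for Myl9. In GENCODE M21 Acta2 starts at 34255590, so that its boxes lie inside the gene there. The box farther from the start of Myl9 is the one with a core of A and T alone.
Acta2: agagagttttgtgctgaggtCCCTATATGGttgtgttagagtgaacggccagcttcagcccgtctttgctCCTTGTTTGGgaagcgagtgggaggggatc
Myl9: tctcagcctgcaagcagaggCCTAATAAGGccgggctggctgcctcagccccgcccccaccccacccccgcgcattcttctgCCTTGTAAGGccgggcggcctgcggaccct
These are matches of letters, and binding was not measured. Acta2 and Myl9 had r = 0.4997 over the 10 libraries and 0.187 over the 8.

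Of 20 partner genes of the contractile fiber, 15 had a fitted value under 0 over the 8 libraries, beside 47.6% of all tested genes, and 1 was called lower, beside 3.56%. This was Myh11, the smooth muscle myosin heavy chain, at 72.0, 99.4, 63.5, 112 and 99.998 CPM in PBS replicates 1 to 5, and at 156, 48.0, 63.0, 59.2 and 71.0 CPM in DMM replicates 1 to 5. As in Cnn1, DMM replicate 1 was the highest of the 10 kidneys. Its log2 fold change was -0.67 (SE 0.17, adjusted p = 0.0477, edgeR) over the 8 libraries and -0.17 over all 10. Csrp1, a muscle LIM protein, was at -0.51 (SE 0.11, adjusted p = 0.0243, edgeR, with a fold under the threshold). The median log2 fold change of the list was -0.22 over the 8 libraries and -0.07 over all 10.

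The regulators around SRF and myocardin did not pass the test, with 0 of 13 called and a median of -0.09 over the 8 libraries and -0.04 over all 10. Ctgf, a matricellular target of these factors, had a log2 fold change of -0.60 (SE 0.29), the LIM gene Fhl2 -0.30 (SE 0.15) and the factor gene Tead1 0.65 (SE 0.36). Tead1 was at 540.1 CPM in DMM replicate 4 and between 163 and 182 CPM in the other 9 libraries. None of the 4 PDGF ligand genes was called either, with log2 fold changes over the 8 libraries of -0.21 for Pdgfb (SE 0.24), -0.08 for Pdgfd (SE 0.14), 0.15 for Pdgfa (SE 0.29) and -0.06 for Pdgfc (SE 0.14).

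Of 15 tested mural cell genes, which mark pericytes and vascular smooth muscle, 1 was called lower over the 8 libraries, beside 3.56% of all tested genes. Ednra, the endothelin receptor of these cells, had a log2 fold change of -0.76 (SE 0.17, adjusted p = 0.0315, edgeR), against -0.50 over all 10 libraries. The guanylate cyclase gene Gucy1b1 was at -0.43 (SE 0.12) and the Notch target Heyl at -0.52 (SE 0.19), and neither was called. The list had a median of -0.18 over the 8 libraries and -0.14 over all 10.

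Fibroblast identity genes had the lowest median of the 9 related lists, -0.98 over the 8 libraries and -0.55 over all 10, and 4 of 19 were called lower over the 8, beside 3.56% of all tested genes. Postn, which encodes the matrix protein periostin, was at 94.4, 102, 56.9, 173 and 124 CPM in PBS replicates 1 to 5, and at 159, 27.2, 27.7, 37.5 and 51.4 CPM in DMM replicates 1 to 5. Its log2 fold change was -1.78 (SE 0.26, adjusted p = 0.00683, edgeR) over the 8 libraries and -0.86 over all 10. Pdgfrl, a receptor-like gene, had -1.50 (SE 0.34), the surface antigen Thy1 -1.20 (SE 0.29) and the proteoglycan Lum -1.80 (SE 0.45). When all 10 libraries were tested, 0 of 20 genes of this list were called.

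Of the other lists, the 12 further intermediate filament genes had 0 calls and a median of -0.26 over the 8 libraries, with Lmnb1 at -0.58 (SE 0.13, adjusted p = 0.0316, edgeR, with a fold just under the threshold), Krt19 at -0.88 (SE 0.25) and Sync at -1.25 (SE 0.44). With DESeq2, with library size alone or without a filter on low counts, 1 gene of that list was called lower. Of all genes, 911, 700 and 549 were called lower in these fits, in place of 590. The further actin, tropomyosin, light chain and calponin genes had 0 calls among 10 tested and a median of -0.23, with Cnn2 at -0.39 (SE 0.14), Tpm3 at -0.25 (SE 0.16) and Cnn3 at 0.15 (SE 0.11). The 3 kinases related to the PDGF receptors had none, with Csf1r at -0.37 (SE 0.10), Flt3 at -0.50 (SE 0.30) and Kit at 0.21 (SE 0.19). Among 9 tested mesenchymal transition genes, 1 was called (beside 3.56% of all tested genes), the factor gene Twist1 at -0.78 (SE 0.17, adjusted p = 0.0281, edgeR), while Sparc was at -0.89 (SE 0.24) and Fn1 at -0.64 (SE 0.30). For the lists with 0 calls the same 3.56% applies, and with so few genes 0 calls are near that share. None of the lists named here had a call over all 10 libraries. The single calls of Myh11, Ednra and Twist1 were each lost without PBS replicate 2, 4 or 5 or without DMM replicate 3 or 5. Ednra and Twist1 also lost theirs without PBS replicate 1, Myh11 without DMM replicate 2 or with RLE size factors, and Twist1 without a filter on low counts, while the 4 fibroblast calls became between 1 and 11 with 1 library left out, 9 with DESeq2, which called 911 of all genes lower in place of 590, and 0 with the replicate number as a block. Without DMM replicate 4, where 7.61% of all tested genes were called lower, the calls rose from 1 to 5 among mesenchymal transition genes, from 0 to 3 among the further intermediate filament genes, from 0 to 1 among the regulators, and from 1 to 2 each among mural cell and partner genes.

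Markers of other cell types were counted in the same way. Of 8 leukocyte markers, led by Lyz2, 4 were called lower over the 8 libraries, beside 3.56% of all tested genes. Their summed level was 1395, 1511, 1147, 1227 and 1512 CPM in PBS replicates 1 to 5, and 1399, 969.7, 710.2, 603 and 711 CPM in DMM replicates 1 to 5. Of 9 proximal tubule markers, led by Lrp2, 3 were called higher, beside 2.73%, with summed levels of 2201, 2237, 5245, 988 and 1725 CPM in PBS replicates 1 to 5, and 1590, 4321, 5335, 4485 and 6409 CPM in DMM replicates 1 to 5. In both lists the groups overlapped over all 10 libraries and were apart over the 8. In DMM replicate 4 the proximal tubule sum came mostly from Lrp2 (2504 CPM) and Cubn (526 CPM). Its Slc34a1, Slc27a2, Aqp1 and Slc5a2 (474, 500, 195 and 36.4 CPM) were within the range of PBS replicates 1, 2, 4 and 5. The remaining proximal tubule markers of that library were above this range. For the leukocyte markers only DMM replicate 1 lay across, as PBS replicate 3 was above DMM replicates 2 to 5. In neither list was a marker at 0 in every library. Transcripts of the mitochondrial genome made up 1.97% to 2.30% of the counts in PBS replicates 1, 2, 4 and 5 and 3.79% to 5.62% in DMM replicates 2 to 5, with 3.66% in PBS replicate 3 and 2.30% in DMM replicate 1. The part of these differences in the values of the 10 genes was not tested.

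The smooth muscle markers, of which Smtn was the most abundant, summed to 235, 263, 226, 291 and 252 CPM in PBS replicates 1 to 5, and to 313, 207, 242, 204 and 246 CPM in DMM replicates 1 to 5. The groups overlapped in both sets of libraries, and Myh11, counted above as well, was the 1 of 7 that was called, beside 3.56% of all tested genes. Of the 5 mesangial markers, led by Serpine2, 1 was called lower, beside the same 3.56%, and the sums of the groups overlapped. The 7 urothelial markers, led by Krt5, summed to 100.4, 212, 109, 252 and 152 CPM in PBS replicates 1 to 5, and to 155, 62.1, 172, 44.8 and 214 CPM in DMM replicates 1 to 5. Their part in Actg2 and Cnn1, which the wall of the renal pelvis also makes, was not tested. PBS replicate 4, which was the highest PBS kidney in Cnn1, Actg2, Tpm2, Vim and Pdgfrb, had 409.6 CPM of the renin gene Ren1 and 85.7 CPM of the 5 adipocyte markers, led by Cfd. Neither the 2 renin cell markers nor the 1 adipocyte marker that was tested had a call. In the other libraries these were between 22.1 and 287 CPM and between 0 and 21.2 CPM. Skeletal muscle markers summed to between 2.70 and 3.94 CPM in each library, with Actn3 the most abundant, Myh2 and Myh4 at 0 counts in every library and at most 3 counts of Ckm and Myl1. The 7 endothelial markers (led by Pecam1), the 5 podocyte markers (led by Podxl) and the 2 tested mesothelial markers (led by Upk3b) had 0 calls over the 8 libraries, and their sums overlapped between groups.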

How the data were processed

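Bulk RNA-seq libraries of 5 PBS and 5 DMM kidneys were used. According to the submitters' processing notes, reads were aligned with HISAT2 (version 2.0.5) to mm10. The counting tool, the annotation release and the strand setting are not given in the sources used here. The authors deposited counts of reads per gene without normalization, and FPKM values, which were used only to check levels. The gene length that the authors deposited was used for RPKM. The table also holds the authors' comparison of the groups (fold changes and p-values), which was not used.

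Counts were filtered by filterByExpr, scaled by TMM, and differences were tested with the quasi-likelihood F test of edgeR (4.0.16, in R 4.3.3) and Benjamini-Hochberg adjustment over all tested genes. Calls needed a fold change above 1.5 beside an adjusted p under 0.05. Standard errors were derived from F and the fitted log2 fold change. All 10 genes passed the filter in both sets of libraries. Values per library were scaled over 10 libraries, and means and SDs over the set they describe. The steps were tested on simulated counts.

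The genes and lists were chosen with earlier results of these data known, in which PBS replicate 3 and DMM replicate 1 stood apart. Named genes were the 10 genes, 2 to 4 genes of small p per related list over the 8 libraries, the 5 most like Acta2 and Pdgfrb, and the most abundant marker and markers at 0 of each list. Exons were taken from GENCODE M21. Alternatives were DESeq2 (1.42.0), scaling by RLE or by library size alone, other filters, no fold threshold, leaving out each library, a block for the replicate number and, for levels, the deposited FPKM. The alternatives for counts of genes without overlap and for related lists were added after seeing the data. No molecular identifiers are described, and several reads can stem from 1 molecule.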

Additional observations from a re-analysis of the deposited data

Results flagged for a closer look

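DMM replicate 1 was far above the other 4 DMM kidneys in 5 of the 10 genes, by a test of the gap to the nearest sample against the range of the group. Acta2 was at 538 CPM there and at most 267 CPM in the others, and Cnn1 was at 31.5 CPM against at most 8.16 CPM. Tpm2 was at 74.4 CPM against at most 43.7 CPM, Actg2 at 58.6 CPM against at most 17.9 CPM, and Des at 68.2 CPM against at most 44.6 CPM. Chance gives such a gap in about 1 of 20 groups, and 20 groups were examined, but the genes share libraries, so that these 5 are not independent. No gene of the 10 was far from its group in any PBS kidney by this measure.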

How the results depend on the processing

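Over the 8 libraries, DESeq2 called 1660 genes in place of 1042, and leaving out 1 library gave between 407 (PBS replicate 5 left out) and 2410 genes (DMM replicate 4 left out). Among the 10 genes, 2 were called in each of the other scalings, filters and by DESeq2, 3 without a fold threshold, and between 0 and 3 with 1 library left out. With library size alone, 276 genes were higher and 700 lower, against 452 and 590, and the median log2 fold change moved from 0.02 to -0.09 over all genes and from -0.43 to -0.54 over the 10. With the replicate number as a block, 0 genes and 0 of the 10 were called (adjusted p = 0.121 for Cnn1 and 0.111 for Actg2, edgeR's quasi-likelihood test), with log2 fold changes of -2.04 and -2.35. The labels give no pairing of the mice by number. Deviations of PBS and DMM kidneys of the same number had r = -0.05, 0.106, 0.416, 0.160 and -0.29 across genes. Not every kidney was closest to its own number. Such values cannot show whether the mice were paired, for instance by day of surgery, so that the fit with the block is given beside the others. The count of genes with groups that did not overlap, 3, was between 3 and 6 with 1 library left out, beside 11.8% to 18.5% of all tested genes lower in that way. Leaving out a library cannot make separate groups overlap, so that this count could only stay or rise.

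Over all 10 libraries, DESeq2 called 50 genes, and between 0 and 486 were called with 1 library left out, the highest without DMM replicate 1. Without PBS replicate 3 and DMM replicate 1 together, 1042 genes and 2 of the 10 were called. In that case Acta2 was at -0.45 and Pdgfrb at -0.072 in place of 0.07 each. With library size alone they were at -0.0093 and -0.029, and with a filter of 1 CPM Myl9 was at 0.00089. With 1 library left out, log2 fold changes ran from -0.28 to 0.21 in Acta2, -0.28 to 0.041 in Tagln, -0.22 to 0.20 in Myl9, -0.28 to 0.15 in Tpm2, -0.40 to 0.10 in Vim and -0.028 to 0.14 in Pdgfrb, while Cnn1 (-1.49 to -0.39), Actg2 (-1.70 to -0.50), Des (-0.35 to -0.10) and Pdgfra (-0.23 to -0.07) kept their sign. Over the 8 libraries Pdgfrb ran from -0.22 to 0.0029, and the other 9 genes kept their sign. The causes were not tested. The low counts of Tagln, 21 to 62 per library, limit its precision.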
